A study of Mus musculus with 18 samples.

Results

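Ribosome biogenesis genes were followed in recently activated CD8+ T cells given 1 of 5 common gamma chain (γc) cytokines. The set holds 46 listed mouse genes that act in nucleolar rRNA synthesis and processing and in the assembly of both ribosomal subunits. Of these, 45 had a probe set of their own among the 18194 genes tested, and the only probe set of Mrto4, a factor of large subunit assembly related to the stalk protein P0, also names other transcripts, so Mrto4 has no value here. Each gene was read from the probe set annotated to its symbol alone with the highest mean over the 18 arrays. All 45 members had a mean above the background level of 7.33, set at the 95th percentile of 32 genes typical of other tissues, and the member means ran between 7.64 and 13.84 on the log2 scale with a median of 9.80.

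Naive CD8+ T cells came from spleens of male OT-I Thy1.1 mice, whose transgenic T cell receptor sees a peptide of ovalbumin. They were primed for 48 hours with that peptide on irradiated C57BL/6 splenocytes and then cultured for 24 hours with 100 ng/ml of 1 cytokine, which was either IL-2 or IL-4 or IL-7 or else IL-15 or IL-21, or in media alone, the media control. Priming, the enrichment of viable cells over a density gradient and the culture medium were the same in all 6 groups, and each cytokine was used at 1 dose and 1 time. Each group holds 3 arrays, with RNA of replicates 1 and 2 from the RNeasy kit and RNA of replicate 3 from TRIzol with Direct-zol.

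Ribosomes are built in the nucleolus, where RNA polymerase I copies the ribosomal DNA into a long precursor. Small nucleolar ribonucleoproteins modify this rRNA, the small subunit processome folds and cuts it, and separate sets of factors carry the 2 subunits through assembly to export. Activated T cells enlarge their nucleoli before they divide, and growth signals, among them those through MYC, are known to raise the genes of this pathway.

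The hexamer CACGTG, the palindromic E box to which MYC with its partner MAX and other basic helix-loop-helix factors can bind, was looked up in the promoter windows of the members, since the members moved together. The windows hold 250 bases before and 50 bases after each annotated start (RefSeq, GRCm38.p6), and 41 of the 46 members are in that table. The hexamer reads the same on both strands. It stood in a window of 11 of the 41 members (26.8%), against 10.2% of the 14453 tested genes in the table and 8.09% of all its 27025 genes. These are the 12 matches with up to 10 bases on either side, on the strand of the gene, with the hexamer in capitals.
Rrn3, chr16:13780474-13780499 (+): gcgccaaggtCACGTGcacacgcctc
Rrn3, chr16:13780641-13780666 (+): acgctctgctCACGTGggccgcgtcc
Mybbp1a, chr11:72441357-72441376 (+): cttctgagccCACGTGtttg
Utp20, chr10:88826765-88826787 (-): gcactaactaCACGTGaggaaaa
Wdr43, chr17:71616222-71616247 (+): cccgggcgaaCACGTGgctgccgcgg
Imp4, chr1:34439698-34439723 (+): ggtcttagacCACGTGacatcccaaa
Ltv1, chr10:13193094-13193119 (-): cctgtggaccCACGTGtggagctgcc
Tsr1, chr11:74898094-74898119 (+): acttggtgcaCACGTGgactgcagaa
Pes1, chr11:3963967-3963992 (+): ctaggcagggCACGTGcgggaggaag
Nop2, chr6:125131813-125131838 (+): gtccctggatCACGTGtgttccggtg
Nle1, chr11:82908357-82908382 (-): ggttctcctcCACGTGgggacgcagg
Grwd1, chr7:45830740-45830765 (-): gccggagtcgCACGTGtgaaaccgga
Rrn3, which recruits RNA polymerase I to the ribosomal DNA promoter, was the member with 2 matches, and its whole window is shown beside that of Bysl, a late small subunit factor among the strongest responders whose window lacks the hexamer.
Rrn3, chr16:13780449-13780748 (+): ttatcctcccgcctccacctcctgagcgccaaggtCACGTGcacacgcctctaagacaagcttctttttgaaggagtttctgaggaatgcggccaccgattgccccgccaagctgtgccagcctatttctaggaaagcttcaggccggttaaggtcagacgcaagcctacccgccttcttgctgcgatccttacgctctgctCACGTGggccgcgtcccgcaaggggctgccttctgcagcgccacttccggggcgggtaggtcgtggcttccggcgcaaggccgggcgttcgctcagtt
Bysl, chr17:47611443-47611742 (-): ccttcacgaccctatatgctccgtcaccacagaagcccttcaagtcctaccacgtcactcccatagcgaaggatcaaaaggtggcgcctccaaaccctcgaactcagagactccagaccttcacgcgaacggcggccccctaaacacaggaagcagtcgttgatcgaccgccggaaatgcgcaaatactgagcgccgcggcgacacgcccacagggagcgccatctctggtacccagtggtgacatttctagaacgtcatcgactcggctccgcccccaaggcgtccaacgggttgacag
A match says only that these letters lie in the window. The 11 members with the hexamer had a median log2 change with IL-2 of 0.99 and the 29 measured members without it one of 1.00, and 9 and 20 of them passed.

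The deposited columns are not on 1 scale. Replicate 3 of IL-2, IL-15 and media control has a median over all probe sets between 4.47 and 4.52, and the other 15 arrays lie between 5.76 and 5.84, so the 18 columns were quantile normalized before any comparison. Arrays with the same replicate number also deviate together, and a second fit therefore takes the replicate number as a block. The actin signal at the 3' end minus that at the 5' end, a measure of RNA integrity, was 0.38 to 0.50 in the arrays of replicate 3 and 0.16 to 0.34 in the RNeasy arrays. The same measure for Gapdh went the other way, at -0.03 to 0.02 in replicate 3 and 0.01 to 0.14 in the RNeasy arrays. All 9 measured CD8 T cell markers were above the background level in every group, and those of red cells were below it in every group.

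With IL-2, most of the module rose. Compared with media control, 32 of the 45 members were higher and 0 were lower (limma, Benjamini-Hochberg adjusted p under 0.05 over all genes), against 7.83% of all genes higher and 8% lower. With the replicate block 43 were higher and 1 was lower, against 15.5% and 15.1% of all genes. The median change of the members was 0.99, a fold of 1.98, whereas the median over all genes was 0.01. Of the 45 changes 44 were positive, and they ran between -0.28 for Wdr12 and 1.57 for Noc2l. In 40 members all 3 IL-2 arrays were above all 3 control arrays, against 12.9% of all genes, and 44 members were higher in each of the 3 same-numbered pairs, against 30.5%. On the deposited scale, without the renewed normalization, no member passed in limma with any cytokine, and the median change with IL-2 was 1.07. Members at an unadjusted p under 0.05 numbered 23 for IL-2, 23 for IL-4, 22 for IL-7, 0 for IL-15 and 5 for IL-21. Of all 18194 genes the same threshold took in 1109, 1361, 888, 12 and 1087, in the same order. The median change over all genes on this scale was 1e-04 for IL-2, but 0.43 for IL-4 and 0.41 for IL-7. Similar counts for these 3 cytokines therefore do not show similar responses of the members. In RNA of a whole culture, a larger share of cells with the transcript and more transcript in each cell cannot be told apart.

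**Figure D1:**
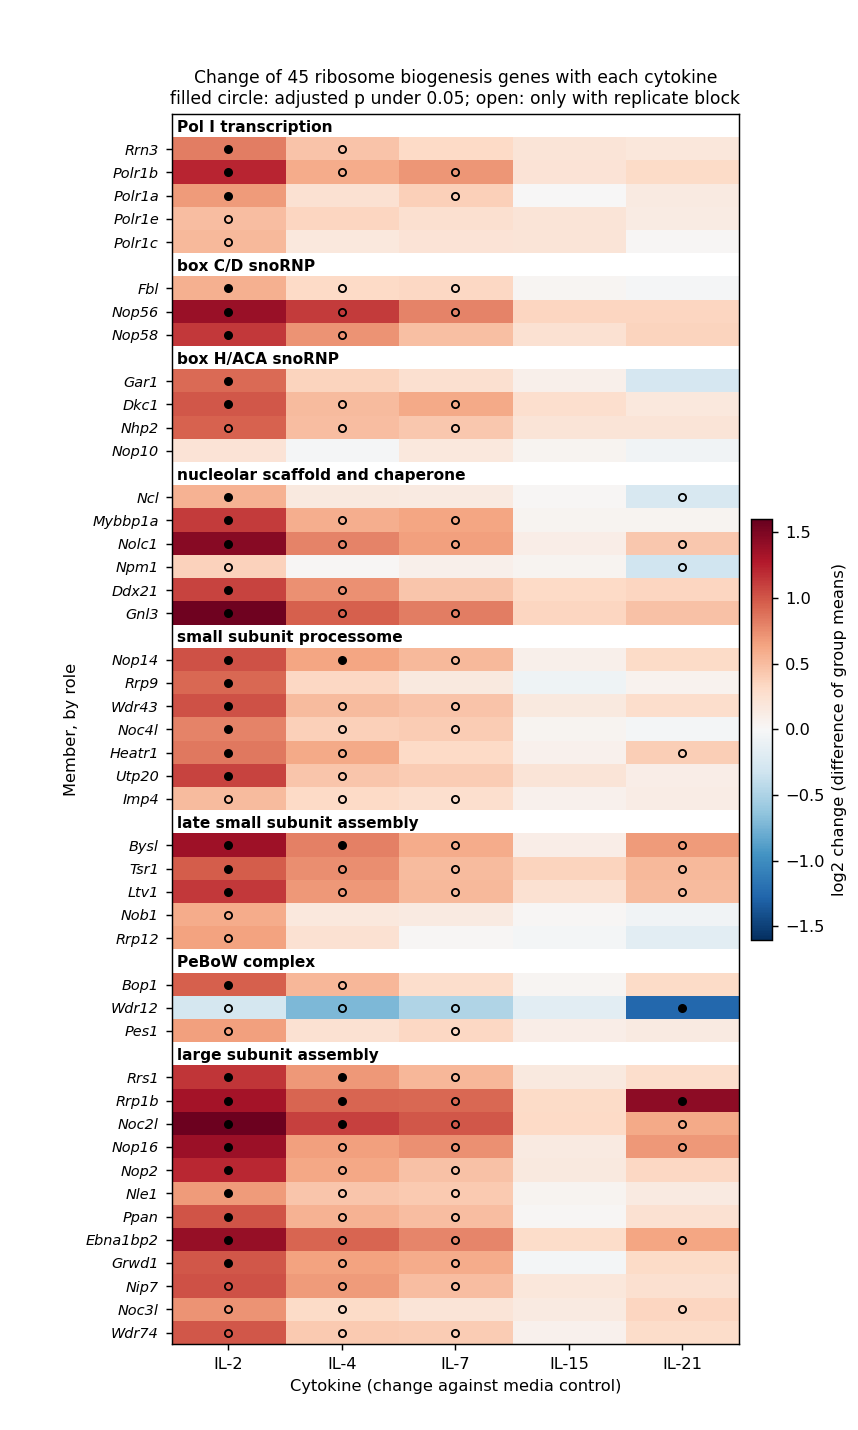
Change of the 45 measured members (rows, by role) with each cytokine against media control (columns), as a log2 difference of group means of 3 arrays each. Filled circles mark an adjusted p under 0.05 and open circles a member that passed only with the replicate block. The IL-2 column holds 32 filled circles, IL-4 holds 5, IL-21 holds 2, and IL-7 and IL-15 hold 0.

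Cell markers moved with IL-2 as well, where 7.83% of all genes were higher and 8% lower. Of the 9 measured CD8 T cell markers IL-2 lowered 6 and raised 0, and the log2 of their summed level was 14.93 to 15.27 in the IL-2 arrays and 15.61 to 15.89 in the control arrays. Of the 11 measured B cell markers 5 were lower, with a summed level of 9.36 to 9.58 with IL-2 and 10.83 to 11.58 in media control, and 1 and 3 of them were above the background level. One of 12 myeloid markers was lower, with summed levels of 8.86 to 9.20 and 9.65 to 12.07, and 0 and 2 above the background level. Of 7 dendritic cell markers Batf3, which activated T cells also express, was higher by 3.78 and Itgax, with means below the background level in both groups, was lower, and no marker of CD4 T cells, red cells or NK cells passed (limma). With the exception of Batf3, the markers that passed moved in the direction opposite to the members, and the part of the markers in the result was not tested.

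RNA polymerase I comes first in the pathway, and 3 of its 5 listed genes rose with IL-2. Rrn3 had log2 levels of 9.33, 8.91 and 9.25 under IL-2, 9.07, 8.76 and 8.57 under IL-4, 8.87, 8.55 and 8.58 under IL-7, 8.63, 8.31 and 8.73 under IL-15, 8.77, 8.36 and 8.46 under IL-21 and 8.48, 8.33 and 8.23 in media control, in the order of replicates 1, 2 and 3. The lowest IL-2 array was above the highest control array, and replicate 1 was the highest array of every group except IL-15. Its change with IL-2 was 0.81 (SE 0.17, fold 1.76, adjusted p = 0.00341), a call lost without replicate 1 of all groups (adjusted p = 0.0512). Polr1b, the second largest subunit of the polymerase, rose by 1.22 (SE 0.28, adjusted p = 0.00735), and Polr1a, the catalytic subunit, rose by 0.68 (SE 0.19, adjusted p = 0.0210). Polr1c, a subunit shared with RNA polymerase III, and Polr1e, a subunit that acts in initiation, had changes of 0.52 and 0.49 that passed only with the replicate block (adjusted p = 0.300 and 0.256, with the block 0.00622 and 0.0129).

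All 3 listed core proteins of the box C/D ribonucleoproteins, which guide ribose methylation of rRNA, rose with IL-2. Fbl encodes fibrillarin, the methyltransferase itself, and had levels of 12.70, 12.45 and 12.44 under IL-2, 12.36, 12.21 and 12.28 under IL-4, 12.43, 12.19 and 12.29 under IL-7, 12.19, 11.75 and 12.05 under IL-15, 12.02, 11.73 and 12.11 under IL-21 and 12.18, 11.81 and 11.92 in media control. Each IL-2 array stood above all 15 other arrays, though replicate 1 with IL-7 lay within 0.01 of the lowest of them. Its change with IL-2 was 0.56 (SE 0.15, fold 1.48, adjusted p = 0.0139). The call was lost without IL-2 replicate 1 (adjusted p = 0.0756), without media control replicate 2 (0.0774), without replicate 1, 2 or 3 of all groups (0.118, 0.111 and 0.0505) and in the fit of both groups alone (0.0837). Nop56 and Nop58, the scaffold proteins of the same particles, rose by 1.38 (SE 0.37, adjusted p = 0.0173) and 1.13 (SE 0.36, adjusted p = 0.0450).

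The box H/ACA particles, which turn chosen uridines of rRNA into pseudouridine, had 2 of 4 members higher. Gar1, which helps to load and release the substrate RNA, had levels of 11.11, 10.79 and 11.25 under IL-2, 10.70, 10.39 and 10.41 under IL-4, 10.62, 10.23 and 10.33 under IL-7, 10.41, 9.70 and 10.56 under IL-15, 10.09, 9.69 and 9.84 under IL-21 and 10.25, 9.71 and 10.47 in media control. All 3 IL-2 arrays were above all 3 control arrays, and its IL-21 arrays overlapped the control arrays at the low end. The change with IL-2 was 0.91 (SE 0.23, fold 1.88, adjusted p = 0.0120), a call lost without media control replicate 2 (adjusted p = 0.0779), without replicate 1 of all groups (0.16) and in the fit of both groups alone (0.0623). Dkc1, the pseudouridine synthase dyskerin, rose by 1.00 (SE 0.26, adjusted p = 0.0140). Nhp2 had a change of 0.94 that passed with the block (adjusted p = 0.107, with the block 1.5e-05), and Nop10 one of 0.22 that passed in neither fit (adjusted p = 0.902, with the block 0.140).

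Among the nucleolar scaffold and chaperone proteins 5 of 6 rose with IL-2. Ncl encodes nucleolin, an abundant RNA-binding protein of the nucleolus, and had levels of 13.82, 13.59 and 13.50 under IL-2, 13.40, 13.26 and 13.06 under IL-4, 13.41, 13.26 and 13.00 under IL-7, 13.14, 13.11 and 13.06 under IL-15, 12.98, 12.81 and 12.67 under IL-21 and 13.23, 13.15 and 12.87 in media control. Its IL-2 arrays were higher than all other arrays, and in each replicate number its IL-21 array was the lowest of the 6. The change with IL-2 was 0.55 (SE 0.14, fold 1.47, adjusted p = 0.0142). The call was lost without IL-2 replicate 1 (adjusted p = 0.0804), without media control replicate 3 (0.0679), without replicate 1 or 2 of all groups (0.14 and 0.181) and in the fit of both groups alone (0.0935). Nolc1, a chaperone of the small nucleolar particles, rose by 1.46 (SE 0.29, adjusted p = 0.00228), and Gnl3, the GTPase nucleostemin, by 1.56 (SE 0.48, adjusted p = 0.0350). The helicase gene Ddx21 rose by 1.09 and Mybbp1a, a nucleolar partner of MYB proteins, by 1.12. Npm1, nucleophosmin, had a change of 0.37 (SE 0.14) that passed with the block (adjusted p = 0.107, with the block 0.00308).

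The small subunit processome had 6 of 7 members higher with IL-2. Nop14, one of its assembly factors, had levels of 9.74, 9.36 and 9.44 under IL-2, 9.22, 8.86 and 9.32 under IL-4, 9.09, 8.77 and 9.18 under IL-7, 8.71, 8.37 and 8.64 under IL-15, 8.81, 8.56 and 9.03 under IL-21 and 8.72, 8.35 and 8.41 in media control. The IL-2, IL-4 and IL-7 arrays all stood above all 3 control arrays, whereas those with IL-15 overlapped them throughout. Its change with IL-2 was 1.02 (SE 0.17, fold 2.03, adjusted p = 0.000758). The other members that rose were Utp20 at 1.08, Wdr43 at 1.02, the U3 particle protein Rrp9 at 0.92, Heatr1 at 0.84 and Noc4l at 0.80, with adjusted p between 0.00537 and 0.0199. Imp4, which joins the U3 RNA to the precursor, had a change of 0.50 that passed with the block (adjusted p = 0.196, with the block 0.000285).

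Of the 5 factors of late small subunit assembly 3 rose with IL-2. Bysl had levels of 10.45, 10.07 and 10.31 under IL-2, 9.89, 9.66 and 9.64 under IL-4, 9.66, 9.28 and 9.62 under IL-7, 9.15, 8.53 and 9.39 under IL-15, 9.80, 9.44 and 9.58 under IL-21 and 9.20, 8.56 and 9.0 in media control. The groups with IL-2, IL-4, IL-7 and IL-21 did not overlap the control arrays, and IL-15 did. The change of Bysl with IL-2 was 1.35 (SE 0.21, fold 2.55, adjusted p = 0.000408). Ltv1, an export adaptor, rose by 1.13 and Tsr1, a GTPase-like factor of the immature subunit, by 0.96. Nob1, the nuclease that makes the final cut of the small subunit rRNA, and Rrp12, an export factor, had changes of 0.59 and 0.64 that passed with the block (adjusted p = 0.0697 and 0.143, with the block 0.00037 and 0.00228).

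Large subunit assembly had the highest number of members, and 9 of its 12 measured genes rose with IL-2. Rrs1, which helps to bring the 5S particle into the precursor, had the largest F over the 6 groups of all members, with levels of 10.82, 10.39 and 10.45 under IL-2, 10.33, 9.98 and 9.98 under IL-4, 10.05, 9.86 and 9.91 under IL-7, 9.61, 9.28 and 9.80 under IL-15, 9.68, 9.45 and 9.91 under IL-21 and 9.53, 9.43 and 9.25 in media control. Its IL-2 arrays were above every other array, and the arrays with IL-4 and IL-7 were above those in media control. The change with IL-2 was 1.15 (SE 0.17, fold 2.22, adjusted p = 0.000247). Noc2l, Ebna1bp2, Nop16 and Nop2, an rRNA methyltransferase, rose by 1.57, 1.39, 1.36 and 1.21, and Ppan, Grwd1, a chaperone of a large subunit protein, and Nle1 by 1.01, 0.99 and 0.68. Nip7, Wdr74 and Noc3l had changes of 1.02, 0.99 and 0.72 that passed only with the block (adjusted p between 0.0719 and 0.117, with the block at most 5.68e-05).

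The PeBoW complex, which is named after its members Pes1, Bop1 and Wdr12 and is needed to cut the precursor of the large subunit rRNA, was the role in which the members did not move together. Bop1 had levels of 10.23, 9.65 and 10.06 under IL-2, 9.72, 9.45 and 9.51 under IL-4, 9.47, 9.04 and 9.43 under IL-7, 9.18, 8.67 and 9.32 under IL-15, 9.41, 9.04 and 9.57 under IL-21 and 9.34, 8.85 and 8.90 in media control. All 3 IL-2 arrays exceeded all 3 control arrays, and replicate 2 was the lowest array of every group. Its change with IL-2 was 0.95 (SE 0.21, fold 1.94, adjusted p = 0.00495), a call lost without replicate 1 of all groups (adjusted p = 0.0789). Pes1 had a change of 0.65 that passed with the block (adjusted p = 0.131, with the block 9.68e-05).

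Wdr12 moved against the rest of the module. Its levels were 10.66, 10.35 and 11.07 under IL-2, 10.14, 9.83 and 10.77 under IL-4, 10.42, 10.22 and 10.82 under IL-7, 10.65, 10.56 and 11.19 under IL-15, 9.71, 9.33 and 10.10 under IL-21 and 10.94, 10.75 and 11.22 in media control. In each replicate number every cytokine array was below the control array, and the IL-21 arrays alone did not overlap the control arrays. Wdr12 fell by 1.25 with IL-21 (SE 0.27, adjusted p = 0.00917), a call that was lost without IL-21 replicate 2 (adjusted p = 0.0517), and in the fit without replicate 1 or 2 of all groups (adjusted p = 0.273 and 0.0956). Its changes with IL-4, IL-7 and IL-2 were -0.72, -0.48 and -0.28, and they passed with the block (adjusted p = 6.22e-05, 0.00345 and 0.0326, against 0.125, 0.463 and 0.702 without it). On the deposited scale they were -0.22, 0.02 and -0.21, and the change with IL-21 was -0.77. A second Wdr12 probe set, whose mean was 7.49 with IL-15, against 7.97 in media control, and below the background level with the other cytokines, had changes of -2.05 for IL-21, -1.70 for IL-4, -1.45 for IL-2 and -1.35 for IL-7.

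**Figure D2:**
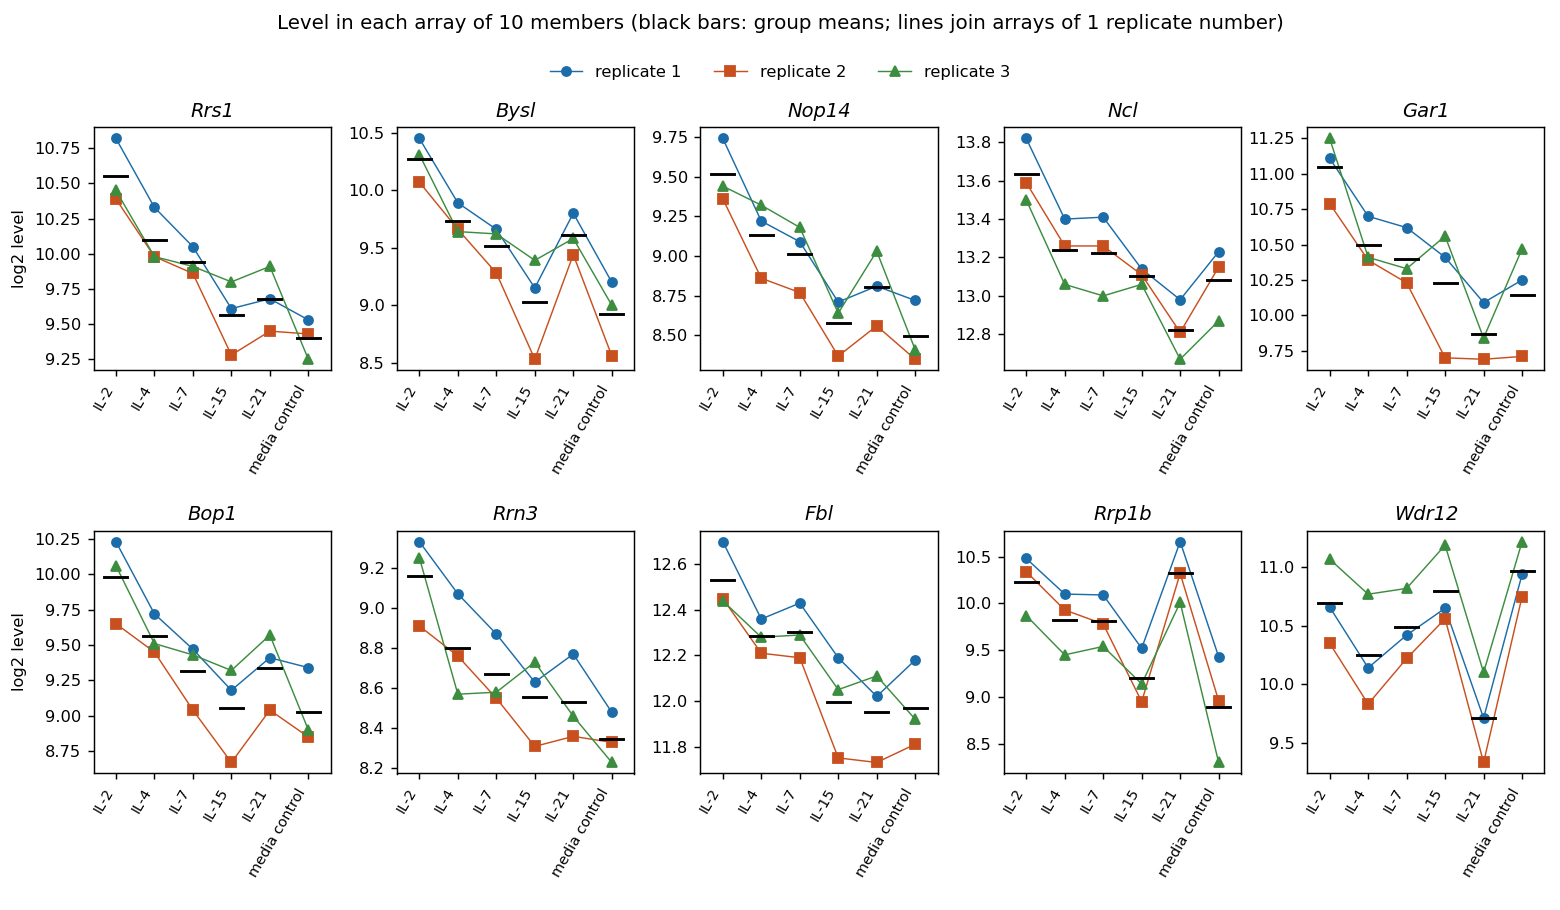
Log2 level in each of the 18 arrays (vertical axes, with a range of their own) of 10 members, by group (horizontal axes), with black bars for the means of 3 arrays and lines that join arrays of 1 replicate number. For 8 of the 10 members the IL-2 mean is the highest, for Rrp1b the IL-21 mean of 10.33 is, and for Wdr12 the media control mean of 10.97 is.

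With IL-4 fewer members passed, and those that did were higher. Higher with IL-4 than in media control were 5 of the 45 members and lower were 0, against 3.98% and 5.1% of all genes. They were Noc2l at 1.09 (SE 0.29, adjusted p = 0.0255), Rrp1b at 0.93 (SE 0.28, adjusted p = 0.0473), Bysl at 0.81 (SE 0.21, adjusted p = 0.0245), Rrs1 at 0.69 (SE 0.17, adjusted p = 0.0153) and Nop14 at 0.64 (SE 0.17, adjusted p = 0.0302). With the replicate block 33 members were higher and Wdr12 was lower, against 12.9% of all genes in either direction. The median change was 0.51, with 43 of 45 changes positive, and 19 members had all 3 IL-4 arrays above all 3 control arrays, against 12.5% of all genes. No member was higher without IL-4 replicate 1, 2 were without IL-4 replicate 2, 3 without IL-4 replicate 3, and 1 was without media control replicate 2 or 3. Over all genes 724 were higher in the full fit, and 456, 429, 518, 410 and 453 in these settings, in the same order. Of the 5 members that passed, Rrs1, Bysl, Nop14 and Rrp1b were each lost in the fit of both groups alone (adjusted p between 0.0575 and 0.143).

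With IL-7 no member passed in limma in either direction, against 0.934% of all genes higher and 0.747% lower. At an unadjusted p under 0.05 there were 14 members, against 2579 of the 18194 genes. The replicate block gave 28 members higher and Wdr12 lower, against 8.34% and 8.01% of all genes. The median change was 0.43, with 44 of 45 changes positive, and 40 members were higher in each of the 3 same-numbered pairs, against 24% of all genes. Noc2l had the largest change, at 0.99 (SE 0.29, adjusted p = 0.10, with the block 0.00375).

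With IL-15 no member passed in either fit, and 0 members had an unadjusted p under 0.05 (limma). Of all genes 0% passed, and 390 had an unadjusted p under 0.05. The median change was 0.11, and the changes ran between -0.17 for Wdr12 and 0.36 for Tsr1. Within the same-numbered pairs the median over the members was -0.03 and -0.06 in replicates 1 and 2 and 0.44 in replicate 3, so the positive sign of the median rested on the pair extracted with TRIzol. Without replicate 3 the median change was -0.05. With a median SE of 0.26 per member and 3 arrays per group, small changes of single members were not detectable.

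With IL-21 1 of the 45 members was higher and 1 lower, against 3.39% of all genes higher and 3.29% lower. Rrp1b rose with IL-21 and Wdr12 fell, and no other member passed. So few calls do not show whether the members moved together. Rrp1b, a factor of large subunit assembly that in human cells also brings a protein phosphatase to the nucleolus, had levels of 10.66, 10.32 and 10.01 under IL-21, 10.48, 10.34 and 9.87 under IL-2, 10.10, 9.93 and 9.45 under IL-4, 10.09, 9.78 and 9.54 under IL-7, 9.52, 8.95 and 9.14 under IL-15 and 9.43, 8.96 and 8.30 in media control. The arrays with IL-21 and with IL-2 overlapped each other, and all of them were above all 3 control arrays. Its change was 1.43 with IL-21 (SE 0.28, fold 2.70, adjusted p = 0.00443) and 1.33 with IL-2 (SE 0.28, fold 2.52, adjusted p = 0.00335). The other 2 probe sets of Rrp1b, both above the background level, had changes of 1.24 and 1.16 with IL-21 and of 1.53 and 1.24 with IL-2. Without replicate 2 of all groups neither change passed any longer (adjusted p = 0.152 with IL-21 and 0.12 with IL-2), and in the fit of both groups alone the change with IL-21 did not either (adjusted p = 0.0537).

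With the replicate block 10 members were higher and 3 lower with IL-21, against 10.6% and 10.5% of all genes. The higher ones were Rrp1b, Nop16, Bysl, Ebna1bp2, Noc2l, Tsr1, Ltv1, Nolc1, Heatr1 and Noc3l. Nucleolin and nucleophosmin were lower beside Wdr12, at -0.26 for Ncl and -0.32 for Npm1 (adjusted p = 0.0305 and 0.0133 with the block, 0.389 and 0.253 without it). On the deposited scale, where the median over all genes with IL-21 is 0.43, the change was 0.14 for Ncl and -0.02 for Npm1. The median change of the 45 members with IL-21 was 0.25, with 36 changes positive and 9 negative. Within the same-numbered pairs the median over the members was 0.02, 0.11 and 0.57 in replicates 1, 2 and 3. The size of the median change thus rested largely on replicate 3, and it ranged between 0.06 and 0.43 when arrays or replicate numbers were left out. Of 5 measured NK cell markers Gzma and Eomes, both of which effector CD8+ T cells also express, were higher with IL-4 and Gzma was higher with IL-21, while Ncr1, Klra1 and Klra8 were below the background level in media control. The summed level of the 5 was 13.64 to 14.03 with IL-4, 13.61 to 14.51 with IL-21 and 9.32 to 9.85 in media control. Above the background level were 2 of the 5 with IL-4, 1 with IL-21 and 2 in media control. The part of these markers in the results was not tested. CD8 T cell markers had 3 lower with IL-4, 1 lower in the IL-7 group and 1 lower in the IL-21 group, and 1, 3 and 2 B cell markers were lower with these cytokines, whose part was not tested either.

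**Figure D3:**
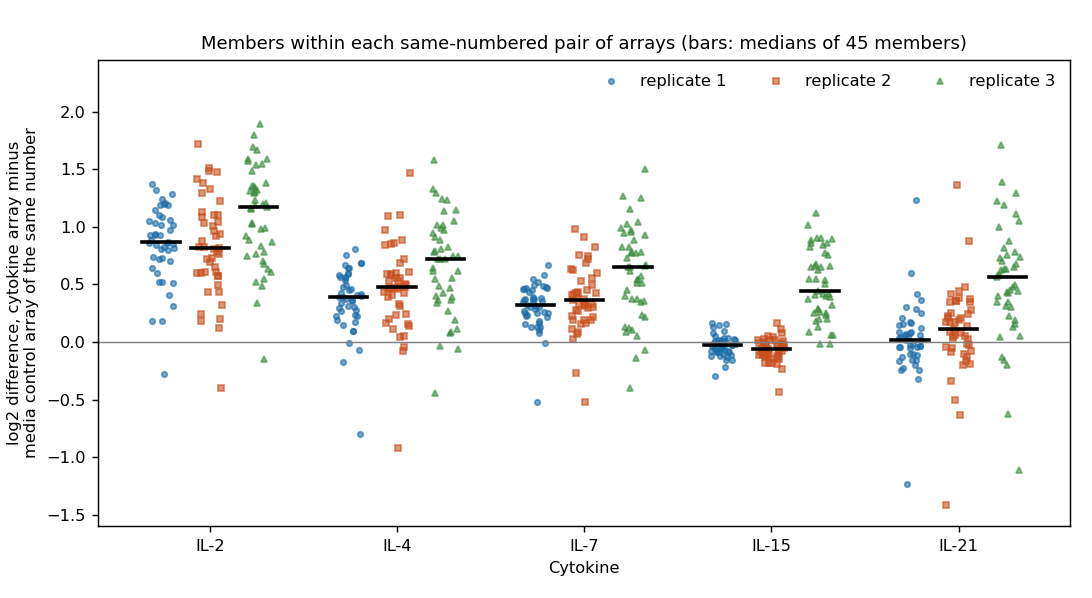
Log2 difference between each cytokine array and the media control array of the same replicate number (vertical axis) for the 45 members (points), by cytokine (horizontal axis), with black bars for the medians. The bars of IL-2 lie at 0.87, 0.82 and 1.17, those of IL-15 at -0.03, -0.06 and 0.44, and replicate 3 has the highest bar with every cytokine.

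All 5 comparisons with media control share the same 3 control arrays, so the cytokines were also set against each other. The group mean was highest with IL-2 in 43 of 45 members and second highest with IL-4 in 31 and with IL-7 in 11, and it was lowest in media control in 34. Across the 6 groups 17 members differed by the moderated F test, against 13.9% of all genes, and 43 with the block, against 35.7%. IL-2 was above IL-15 in 23 members and below it in 0, against 4.24% of all genes higher and 4.35% lower, with a median difference of 0.84. Nolc1 had the largest of these differences, at 1.36 (SE 0.29, adjusted p = 0.00737). With the block the count was 41, against 11.5% of all genes. The count of 23 rested on single arrays, being 4 without IL-15 replicate 2, 6 without IL-2 replicate 1, 14 without IL-15 replicate 1 and 15 without IL-2 replicate 3. Over all genes 772 were higher with IL-2 in the full fit, and 298, 376, 544 and 763 in these settings, in the same order.

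IL-2 was above IL-21 in 12 members and below it in 0, against 2.87% of all genes higher and 3.71% lower, and in 42 with the block, against 10.6%. The largest difference was that of Gar1, at 1.18 (SE 0.23, adjusted p = 0.00522), followed by Mybbp1a at 1.08 and Nolc1 at 1.03. Ncl and Npm1 were among them, at 0.82 and 0.68 (adjusted p = 0.00260 and 0.00832), and so was Wdr12, at 0.98 (adjusted p = 0.0417). Rrp1b had a difference of -0.10 (adjusted p = 0.902). The count was 4 without IL-2 replicate 1, 7 without IL-21 replicate 1 and 3 without IL-21 replicate 2. Over all genes 523 were higher with IL-2 than with IL-21 in the full fit, and 281 without IL-2 replicate 1.

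Between IL-2 and IL-4 no member passed in limma, against 0.962% of all genes higher with IL-2 and 1.1% lower, with 15 at an unadjusted p under 0.05, 26 higher with the block, against 5.62%, and a median difference of 0.42. IL-2 against IL-7 gave 0 members, against 0.528% of all genes higher and 0.896% lower, with 17 at an unadjusted p under 0.05, 31 higher with the block, against 5.19%, and a median difference of 0.51. At an unadjusted p under 0.05 there were 1915 of the 18194 genes between IL-2 and IL-4 and 1998 between IL-2 and IL-7. The mean was higher with IL-2 in all 45 members in both comparisons. IL-4 and IL-7 gave 0 members against each other in limma, with or without the block and also at an unadjusted p under 0.05, against 0.704% of all genes higher and 0.632% lower, with a median difference of 0.07. Of all genes 1257 differed between IL-4 and IL-7 at that unadjusted threshold. IL-15 against IL-21 gave 2, with Wdr12 higher with IL-15 by 1.09 (adjusted p = 0.0355) and Rrp1b at -1.13 (adjusted p = 0.0325), against 1.48% of all genes higher and 2.06% lower.

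The count of 32 with IL-2 rested in part on single arrays and on the pairing. It was 16 without IL-2 replicate 1 and 17 without media control replicate 2, and 23, 23, 31 and 35 without the other 4 arrays. Without replicate 1 of all groups it was 7, and without replicate 3, which leaves the RNeasy arrays, it was 29. With the extraction kit as a block it was 43, and in a fit of the 2 groups alone 19. Calls over all genes moved in the same settings. Of the 18194 genes 1425 were higher in the full fit, 981 without IL-2 replicate 1 and 950 without media control replicate 2. There were 476 without replicate 1 of all groups, 2154 without replicate 3 and 2459 with the kit block. The median change over the members stayed between 0.84 and 1.13 when any array or replicate number was left out.

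Of the 45 members 12 passed with no cytokine against media control, namely Polr1c, Polr1e, Nhp2, Nop10, Npm1, Imp4, Rrp12, Nob1, Pes1, Nip7, Noc3l and Wdr74. Of these 11, all but Nop10, passed with IL-2 with the block. In 30 members several probe sets carry the symbol alone, and these 46 further probe sets were set beside those used. Each of the 29 above the background level had a positive change with IL-2, and of the 17 below it 10 did.

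Other genes of the pathway rose with IL-2 too, with a smaller median change. Of 112 listed factors outside the 46, 48 were higher and 4 lower, against 7.83% and 8% of all genes, with a median change of 0.61. Of 43 other factors of the small subunit 19 were higher and 0 lower, led by Nol10 at 1.48 (SE 0.26, adjusted p = 0.000958), whose control mean was below the background level, and Nol11 at 1.44 (SE 0.23, adjusted p = 0.000493), which encode processome proteins. Of 45 other factors of the large subunit 22 were higher and 2 lower, led by Rpf2, a partner of Rrs1, at 1.62 (SE 0.38, adjusted p = 0.00793) and Rrp15 at 1.39 (SE 0.45, adjusted p = 0.0477). The 2 lower ones, named after their values were seen, were Nop53 at -0.80 and Zfp622 at -0.46. The RNA exosome, which trims rRNA precursors, had 6 of 14 higher, with its nuclease Dis3 at 1.33 (SE 0.29, adjusted p = 0.00510) and Mphosph6 at 1.22, just inside the threshold.

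RNA polymerase I genes outside the module did not move together. Of 10 such genes 1 was higher with IL-2, the subunit gene Polr1g (adjusted p = 0.00775), whose mean was 7.83 with IL-2 and, below the background level, 6.78 in media control, and 2 were lower, the promoter factor gene Taf1c at -0.58 (adjusted p = 0.0385) and the terminator factor gene Ttf1 at -0.47 (adjusted p = 0.0210). Ubtf, which opens the ribosomal DNA for transcription, had a change of -0.05 (adjusted p = 0.965). Of the subunits particular to RNA polymerase III 4 of 9 were higher. Among them Polr3g was below the background level in media control, at 6.76, and Polr3f was below it in both groups, at 7.29 and 6.72. Of the subunits particular to RNA polymerase II 1 of 7 was higher and 1 lower.

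Of the ribosomal proteins themselves few passed. Of 77 listed genes of the cytosolic ribosome 43 had a probe set of their own, and 1 was higher and 1 lower with IL-2, with a median change of -0.05. The higher one was Rpl12, with means of 8.27 with IL-2 and, below the background level, 6.83 in media control, and the lower one was Rps6, at -0.42. The other listed genes have no probe set of their own and no value here. Mitochondrial ribosomal proteins had 11 of 60 higher and 0 lower, with a median of 0.32, and of 9 housekeeping genes 3 were higher, with a median of 0.33.

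**Figure D4:**
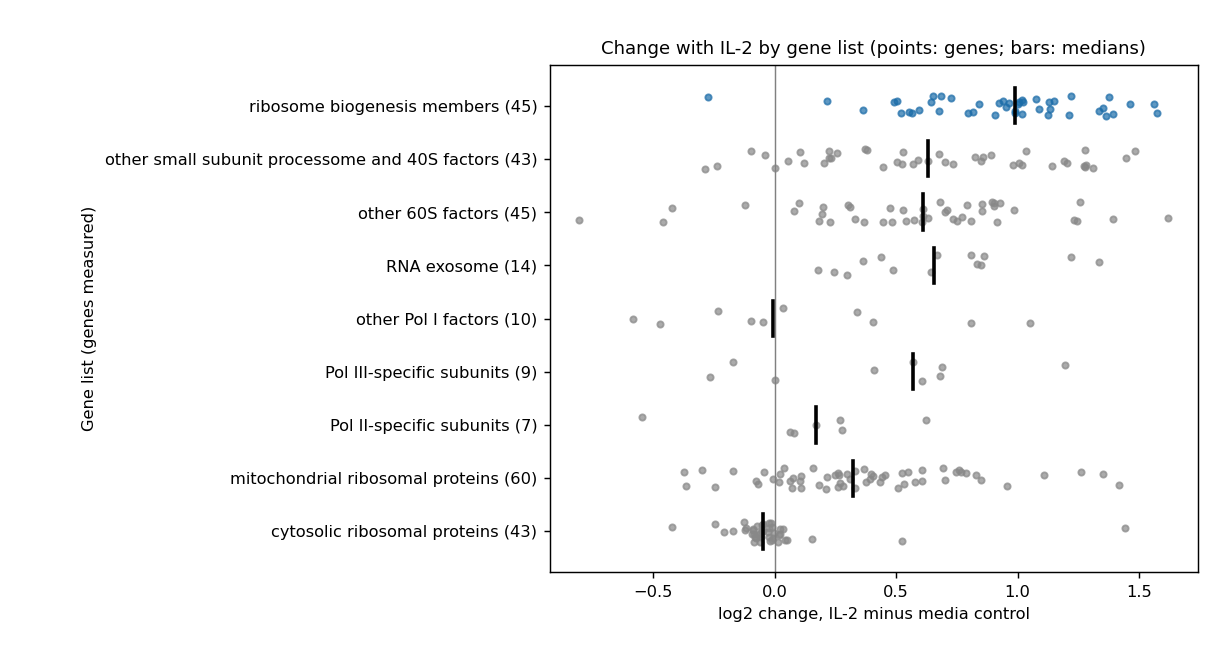
Log2 change with IL-2 against media control (horizontal axis) of each measured gene (points) in the module and in 8 other gene lists (vertical axis, with the number of genes), with black bars for the medians. The median is 0.99 for the 45 members, 0.63 and 0.61 for the other factors of the 2 subunits, 0.66 for the exosome and -0.05 for the cytosolic ribosomal proteins.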

How the data were processed

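RNA of 18 cultures was amplified and hybridised to Affymetrix mouse expression arrays, which read the 3' end of transcripts. The authors imported all arrays into Affymetrix Expression Console (version 1.1, after scanning with GeneChip Command Console 3.1.1) and deposited RMA values on the log2 scale, for 45101 probe sets. Since 3 columns lie on a lower scale, the columns were quantile normalized here. Of the probe sets 34958 carry 1 gene symbol in the platform annotation, 932 carry several and 9211 are not listed, and the symbol's probe set with the highest mean over the arrays was used for each of 18194 genes. The arrays number 3 per group, which limits the precision, and p-values measure the spread between these replicates.

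Groups were compared in limma 3.58.1 (R 4.3.3) with 1 fit over all 6 groups (12 residual degrees of freedom) and Benjamini-Hochberg adjustment over all genes at a threshold of 0.05. Tables and plots were made in Python 3.11.15. The fit was tested on simulated data with independent noise in each array. That simulation held no effect of replicate number, so it does not test the fit under the pairing described next. Deviations from the group means correlated between arrays of the same replicate number (45 pairs, lowest 0.44, median 0.60) above those of different numbers (90 pairs, highest 0.38), so the replicate number pairs the arrays, and a fit with it as a block stands beside the fit without it. The number also carries the extraction kit of replicate 3. Alternatives were another scaling, the block, the kit as block, leaving out arrays, a filter on low values and all probe sets of a gene. Array by array values are given for the member with the largest moderated F in each role and for both members that passed with IL-21, where 1 was higher and 1 lower so that neither direction was that of most, and of other lists up to 2 genes with the largest change that passed with IL-2 are named. The short hexamer sites were chosen after values were seen, and the members, lists and tests were chosen with earlier results of these data known.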

Additional observations from a re-analysis of the deposited data

Results flagged for a closer look

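The array carries control probe sets for the 18S rRNA, which belong to none of the gene comparisons and are read here because this rRNA is the product of the pathway. Their log2 signal was higher with IL-2 than in media control in 3 of 3 same-numbered pairs at each of 3 places along the rRNA. The mean difference was 0.732 at the 5' end, with pair values of 0.332, 0.618 and 1.247 for replicates 1, 2 and 3. It was 0.537 in the middle, with pair values of 0.504, 0.784 and 0.322, and 0.639 at the 3' end, with pair values of 0.571, 0.320 and 1.027. With IL-4 the mean differences were 0.544, 0.223 and 0.404 at the same places, with IL-7 0.449, 0.217 and 0.305, with IL-15 0.221, -0.029 and 0.135, and with IL-21 0.436, 0.267 and 0.357. All 3 pairs were higher at each place with IL-7 and IL-21 too. With IL-4 they were so at the 5' end and in the middle, and with IL-15 at no place. Of all genes 30.5% were higher in each of the 3 pairs with IL-2. The amplification primes on poly(A) tails, which mature rRNA lacks, and no test was run on these values, so whether they follow the rRNA content of the cells was not tested. These probe sets were put to the criteria for a closer look with IL-2 alone. No other value was put to the same rule, so the flag does not set IL-2 apart. The search for single outlying arrays does not apply to groups of 3.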

How the results depend on the processing

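The median changes with IL-2, IL-4, IL-7 and IL-21 kept their sign in every alternative, and that with IL-15 turned negative without replicate 3, without IL-15 replicate 3 and without the 3 arrays of the lower scale. Its range over left-out arrays and replicate numbers was -0.0661 to 0.3341, and it was -0.0548 both without replicate 3 and without the 3 arrays of the lower scale, 2 settings that keep the same IL-15 and control arrays. No change of the 10 members given in full that passed without the block turned its sign, while Ncl with IL-21 and Wdr12 with IL-7, which passed with the block at -0.26 and -0.48, were 0.14 and 0.02 on the deposited scale. The numbers of members that passed moved far more. With the replicate block they were 43 higher and 1 lower with IL-2 instead of 32 and 0, 33 and 1 with IL-4 instead of 5 and 0, 28 and 1 with IL-7 instead of 0 and 0, and 10 and 3 with IL-21 instead of 1 and 1. IL-2 was then above IL-4 in 26, above IL-7 in 31, above IL-15 in 41 and above IL-21 in 42, and 43 differed over the 6 groups.

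On the deposited scale 0 members were higher with IL-2, IL-4 or IL-21 and 0 lower with IL-21, and 0 passed between IL-2 and IL-15, between IL-2 and IL-21 or over the 6 groups (limma). With both the deposited scale and the replicate block 11 were higher with IL-2, 0 were lower with IL-21, 0 were above IL-15 and 0 above IL-21 with IL-2, and 8 differed over the groups. With the extraction kit as a block 15 were higher and 1 lower with IL-4, 5 and 1 with IL-7 and 3 and 2 with IL-21, while IL-2 was above IL-4 in 3, above IL-7 in 6, above IL-15 in 38 and above IL-21 in 34, and 39 differed over the groups. In fits of the 2 groups alone, which have fewer arrays, 19 were higher with IL-2, 1 with IL-4 and 0 with IL-21, and IL-2 was above IL-15 in 0 and above IL-21 in 2. With the filter on low values, under which fewer genes are tested, 2 were higher with IL-21, and IL-2 was above IL-7 in 2 and above IL-21 in 22. With the mean of all probe sets 1 was higher with IL-7 and 1 lower with IL-4, and with median centring 3 were higher with IL-4 and IL-2 was above IL-7 in 1. Without the 3 arrays of the lower scale IL-2 was above IL-7 in 1 and 10 differed over the groups.

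When arrays or replicate numbers were left out, the count ranged between 7 and 35 higher with IL-2, 0 and 6 higher and 0 and 1 lower with IL-4, 0 and 2 higher with IL-7, and 0 and 2 higher and 0 and 1 lower with IL-21. Over all genes the number higher with IL-2 ranged between 476 and 2154. The count of members above IL-15 with IL-2 ranged between 0 and 29, that above IL-21 between 0 and 19, and that over the 6 groups between 0 and 15. Cyclic loess and the trended robust fit moved no count by over 1.5 times. The cause of these shifts was not tested unless stated. Signal limits the changes of Nol10, Polr1g, Rpl12 and Polr3g, which lay below the background level in media control. The same holds for Urb1 and Ddx31, which were counted among the other large subunit factors higher with IL-2. It also limits the changes of Itgax and Polr3f, which lay below that level both with IL-2 and in media control. The second Wdr12 probe set is limited too, as it lay below that level with IL-2, IL-4, IL-7 and IL-21.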
